A study of Rattus norvegicus with 48 samples.

Results

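Defb1, Nefl, Pla2g7 and Tceal9 are 4 genes that an earlier look at these rat liver arrays had singled out as being expressed out of place in chemically induced lesions. They were chosen by name from the 22523 probes of the deposited table, with their levels in these arrays already known, and each is read by 1 probe. Because those levels chose the genes, their group levels, their differences between groups and their relation to Krt19 are given as descriptions, with no test. Krt19, which encodes the keratin that marks bile duct epithelium and progenitor cells in liver, serves as the gene of comparison in the nodules. That description holds unevenly. A gene counts as detected in an array when its deposited detection p-value is under 0.05. Defb1 and Nefl were detected in 0 of 10 control livers and Pla2g7 in 1 of 10, whereas Tceal9 was detected in all 10 controls and is a gene of control liver that is brighter in lesions. Over all 48 arrays Defb1 was detected in 36, Nefl in 33, Pla2g7 in 33 and Tceal9 in 48, and all 4 passed the filter of detection in at least 4 arrays.

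All tissue came from livers of F-344 rats, male per the protocol. Lesions were induced with 150 mg/kg of the carcinogen diethylnitrosamine, then, after 2 weeks, a diet with 0.02% 2-acetylaminofluorene for 1 week, partial hepatectomy and 1 more week on that diet. The groups were 10 control livers, 10 nodules labelled KRT19-positive and 10 labelled KRT19-negative, both taken at 10 weeks, then 4 adenomas with 5 early hepatocellular carcinomas (eHCC), both at 10 months, and at 14 months 9 advanced carcinomas (aHCC). Tissue was cut by laser from frozen sections of 16 µm. The labels repeat 1 treatment text for every sample, so the age of the controls and whether they received any of it cannot be read from them. Lesions may share an animal, since the labels tie none to an animal, and p-values over lesions are then too small. The sample numbers in the titles fall into 3 ranges, 1 to 14, 15 to 27 and 28 to 48, and each range holds its own controls; the labels do not say what the ranges stand for.

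The arrays had medians between 159.0 and 159.6 intensity units and 8323 to 11434 detected probes each. Control samples 25 to 27 vary more among themselves than the other controls for some genes, and control 27 had the highest Krt19 of the controls (8.76 on the log2 scale). The KRT19 labels of the nodules go against the Krt19 probe in samples 15 to 24. Krt19 had a log2 intensity of 11.64 to 13.15 in nodules 1 to 5, labelled positive, and of 7.69 to 10.50 in nodules 6 to 10, labelled negative. In the second range the order was the opposite, with 7.70 to 10.60 in nodules 20 to 24, labelled positive, and 11.49 to 12.96 in nodules 15 to 19, labelled negative. Nodules are therefore called by their label and, where the ranges are kept apart, by their numbers. The levels of Defb1, Nefl, Pla2g7 and Tceal9 are also given for each label within each range. For other genes, most differences from control are given only for the pooled labels. So are the counts of genes that passed against control in the fit over all arrays. Each pooled label joins nodules of high and of low Krt19, and that fit did not split them by range. Counts from fits within a range, chosen after the data were seen, are given with the alternatives at the end.

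The 4 genes have unlike known roles. Defb1 encodes beta-defensin 1, a small cationic peptide that epithelia of kidney, airway and gut secrete and that kills microbes. Nefl encodes the light chain of neurofilaments, the intermediate filaments of nerve axons, where it assembles with the medium and heavy chains. Pla2g7 encodes a secreted phospholipase A2, also called platelet-activating factor acetylhydrolase, which travels in plasma on lipoproteins, is made largely by macrophages, and cuts platelet-activating factor and oxidised phospholipids. Tceal9 belongs to a family of small proteins that resemble part of the transcription elongation factor TFIIS, and that is clustered with the related BEX genes on the X chromosome.

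Promoters are shown for the 2 genes with an entry in RefSeq's table of the GRCr8 rat assembly, because Pla2g7 and Tceal9 were both brighter in lesions and their upstream sequence lets a reader see which short motifs stand there. Each is the 250 bases before the annotated start, read 5′ to 3′ on the gene's strand, at chr9:24901748-24901997 (minus strand) and chrX:104037024-104037273 (plus strand). Capitals mark every match, on either strand, to 5 motifs: the AP-1 site TGANTCA, the core of the antioxidant response element TGACNNNGC, the GC box GGGCGG, the TATA box TATAAA and the cAMP response element core TGACGT.
Pla2g7: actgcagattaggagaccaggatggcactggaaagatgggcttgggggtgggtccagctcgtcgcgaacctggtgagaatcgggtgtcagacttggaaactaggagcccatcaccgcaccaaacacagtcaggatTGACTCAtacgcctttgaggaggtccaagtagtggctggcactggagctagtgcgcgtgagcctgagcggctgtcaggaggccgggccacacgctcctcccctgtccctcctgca
Tceal9: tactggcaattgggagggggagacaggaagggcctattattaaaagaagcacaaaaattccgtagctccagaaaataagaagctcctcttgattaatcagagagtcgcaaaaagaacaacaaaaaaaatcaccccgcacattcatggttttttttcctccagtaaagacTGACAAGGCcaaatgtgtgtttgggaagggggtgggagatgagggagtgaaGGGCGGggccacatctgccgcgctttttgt

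The Pla2g7 promoter holds 1 AP-1 match, TGACTCA, with its first base at position -115 from the annotated start, and 6.34% of the 33469 promoters in the table hold such a match. The Tceal9 promoter holds 1 antioxidant response element core, TGACAAGGC, with its first base at position -81, and 1 GC box at position -30. Those motifs occur in 10.1% and 30.5% of all promoters. Neither window has the letters of the TATA box (12.9% of promoters) or of the cAMP response element core (6.95%). GC content was 60% for Pla2g7 and 46% for Tceal9, against a median of 51.2% over all promoters. A match describes these letters and no more.

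Defb1, the antimicrobial peptide gene, went from background to a bright signal. Its log2 intensity in the 10 controls had a lowest value of 6.97, a median of 7.12 and a highest of 7.39, none of them detected. In the 4 adenomas it was 13.11, 13.71, 13.46 and 12.16, and in the 5 eHCC 13.14, 13.04, 14.18, 12.49 and 13.92. In the 9 aHCC the lowest was 11.37, the median 12.38 and the highest 15.06. Every adenoma, eHCC and aHCC lay far above every control. Means were 7.15 ± 0.13 (SD, n = 10) in control, 13.11 ± 0.68 (n = 4) in adenoma, 13.35 ± 0.69 (n = 5) in eHCC and 12.69 ± 1.03 (n = 9) in aHCC. Since no control array detected the probe, a fold is a lower bound, taken against the lowest intensity among detected probes of each control array or the probe's own, whichever was higher. On this scale Defb1 was at least 50.7-fold higher in adenoma, 60.2-fold in eHCC and 38.0-fold in aHCC. The bounds, like every fold here, rest on intensities from which no background had been subtracted, which shrinks the fold of dim probes.

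Defb1 was detected in 18 of 20 nodules. In nodules 1 to 5, labelled positive, it was 13.51, 13.23, 13.30, 13.59 and 13.82, and in nodules 15 to 19, labelled negative, 13.90, 13.23, 12.61, 13.09 and 13.44. These 10 nodules stood at the level of the 10-month lesions. In nodules 6 to 10, labelled negative, it was 8.43, 12.02, 7.22, 10.39 and 11.36, and in nodules 20 to 24, labelled positive, 7.57, 9.84, 7.27, 12.62 and 10.72. These 10 were scattered between the control level and the level of the tumours, and nodules 8 and 22 were not detected. Nodule 23 reached 12.62 and so exceeded nodule 17, at 12.61, by 0.01, which was the only crossing of the labels within samples 15 to 24. Over the pooled labels the difference from control was 4.40 ± 0.72 (SE of the linear model) for nodules labelled positive and 4.42 ± 0.72 for those labelled negative, with bounds of at least 17.2-fold and 17.5-fold. By label and range the bounds were at least 66.2-fold in nodules 1 to 5, 56.2-fold in 15 to 19, 5.43-fold in 6 to 10 and 4.48-fold in 20 to 24.

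**Figure D1:**
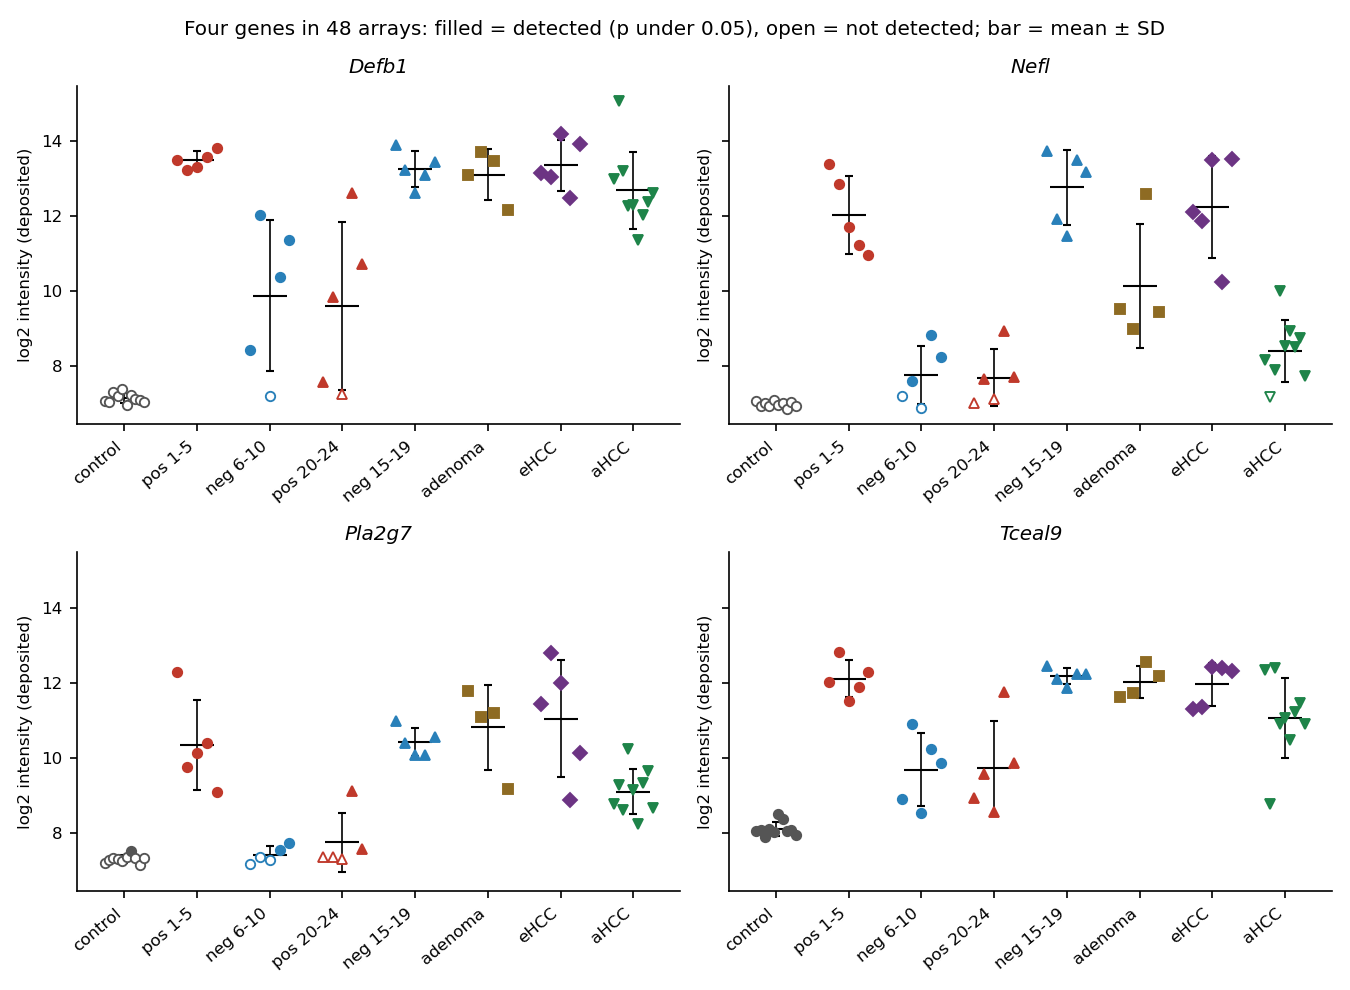
Log2 intensity (vertical axis) of the 4 genes in each of 48 arrays, by group; nodules are split by KRT19 label (pos, neg) and sample number, filled points are detected at p under 0.05, open points are not, and bars give the mean ± SD. Defb1 and Nefl are open in all 10 controls, Tceal9 is filled in all 48 arrays, and nodules 1 to 5 and 15 to 19 sit above most of nodules 6 to 10 and 20 to 24.

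Nefl, the neurofilament light chain gene, was undetected in every control and bright in 10 of the 20 nodules. The controls had a lowest log2 intensity of 6.86, a median of 7.00 and a highest of 7.10. In nodules 1 to 5 Nefl was 13.40, 12.85, 11.72, 11.23 and 10.97, and in nodules 15 to 19 it was 13.75, 11.92, 11.48, 13.51 and 13.18. All 10 of those nodules were detected and lay more than 3 log2 units above the brightest control. In nodules 6 to 10 the values were 7.22, 7.62, 6.90, 8.83 and 8.24, and in nodules 20 to 24 they were 7.03, 7.66, 7.13, 8.93 and 7.72. Nodules 6, 8, 20 and 22 were not detected, and nodules 8 and 20 fell inside the control range. The bounds over control were at least 24.1-fold in nodules 1 to 5 and 40.2-fold in 15 to 19. No fold is given for nodules 6 to 10 and 20 to 24, where 4 of 10 were themselves not detected.

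Among the tumours, Nefl separated the eHCC from the aHCC, whereas the adenomas overlapped both. The log2 difference of eHCC from adenoma was 2.10 ± 1.20 (SE). The 4 adenomas had 9.53, 9.00, 12.59 and 9.44, the 5 eHCC 12.11, 11.87, 13.49, 10.24 and 13.52. The 9 aHCC had a lowest value of 7.17, a median of 8.52 and a highest of 10.02. The lowest aHCC was not detected and exceeded the highest control by less than 0.1, and every eHCC lay above every aHCC. Means were 10.14 ± 1.65 (SD, n = 4), 12.24 ± 1.36 (n = 5) and 8.41 ± 0.82 (n = 9). The mean of the aHCC was lower than that of the eHCC by a log2 difference of -3.83 ± 1.00 (SE). Over control, Nefl was at least 6.48-fold higher in adenoma, 27.9-fold in eHCC and 1.96-fold in aHCC. One adenoma, sample 42, lay far above the other 3, and the log2 difference of adenoma from control was 3.15 ± 1.06 (SE) with it and 2.33 without it.

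Pla2g7, the phospholipase gene, was near background in control liver. The controls ranged from 7.15 to 7.51 with a median of 7.31, and the brightest of them, sample 27, was the only one detected. In nodules 1 to 5 it was 12.29, 9.76, 10.14, 10.39 and 9.10, and in nodules 15 to 19 10.98, 10.38, 10.08, 10.07 and 10.55. All 10 were detected and lay above every control. In nodules 6 to 10 it was 7.16, 7.36, 7.28, 7.53 and 7.74, and in nodules 20 to 24 7.35, 7.36, 7.31, 9.12 and 7.57. Only 4 of those 10 were detected, and 6 of the 10 lay inside the control range; nodule 23 alone passed 8. Against the same floor as above, since 9 of 10 controls did not detect it, Pla2g7 was at least 7.41-fold higher in nodules 1 to 5 and at least 7.79-fold in nodules 15 to 19. No fold is given for nodules 6 to 10 and 20 to 24, which were mostly at background like the controls.

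Among tumours, Pla2g7 was 11.78, 11.08, 11.19 and 9.18 in the adenomas and 11.42, 12.80, 11.98, 8.87 and 10.14 in the eHCC. In the 9 aHCC the lowest value was 8.23, the median 9.15 and the highest 10.23. Every tumour was detected and lay above every control, and the aHCC overlapped the lower end of both other groups. Means were 10.81 ± 1.13 (SD, n = 4), 11.04 ± 1.55 (n = 5) and 9.10 ± 0.61 (n = 9). Against the floor these were at least 10.2-fold, 12.1-fold and 3.14-fold over control. The aHCC mean was lower than the eHCC mean by a log2 difference of -1.94 ± 0.67 (SE), larger than the SD of either group.

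Tceal9, the TFIIS-like gene, had a steady signal in control liver of 7.90 to 8.51 with a median of 8.06, detected in all 10. In the adenomas it was 11.62, 11.72, 12.54 and 12.19, and in the eHCC 11.31, 11.34, 12.43, 12.38 and 12.31. In the 9 aHCC the lowest was 8.78, the median 11.05 and the highest 12.38. All 18 tumours lay above every control, 1 aHCC (sample 29) only slightly. Tceal9 was 15.1-fold higher in adenoma (log2 difference 3.91 ± 0.64 SE), 14.4-fold in eHCC (3.85 ± 0.59) and 7.74-fold in aHCC (2.95 ± 0.50). In nodules 1 to 5 the values were 12.01, 12.83, 11.51, 11.89 and 12.29, and in nodules 15 to 19 12.45, 12.11, 11.85, 12.24 and 12.23. In nodules 6 to 10 they were 8.89, 10.91, 8.53, 10.24 and 9.86, and in nodules 20 to 24 8.92, 9.56, 8.55, 11.75 and 9.85. Every one of the 20 nodules exceeded the brightest control, the weakest (nodules 8 and 22) by less than 0.1. The folds over control were 16.0 in nodules 1 to 5, 16.8 in 15 to 19, 2.99 in 6 to 10 and 3.07 in 20 to 24.

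**Figure D2:**
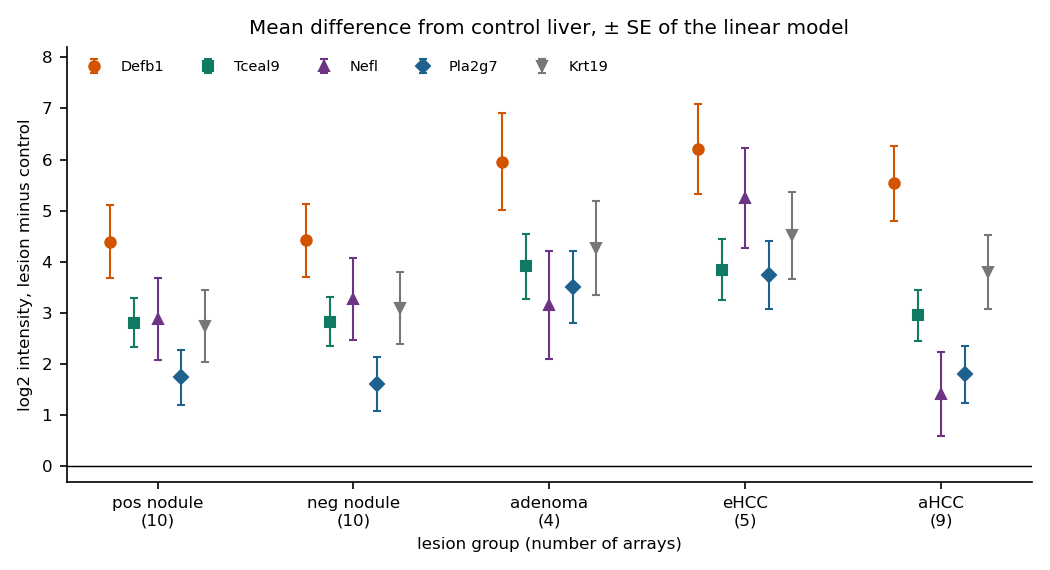
Mean log2 intensity of each lesion group minus that of control liver (vertical axis, ± SE of the linear model over 48 arrays) for the 4 genes and Krt19, with the number of arrays per group on the horizontal axis. For Nefl the eHCC value is 5.25 and the aHCC value 1.42, and for Defb1 the 3 tumour groups lie between 5.54 and 6.20.

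All 4 genes lay above every control array in every adenoma, every eHCC and every aHCC. The share of all 13479 features tested that did so was 9.04% for adenoma, 8.84% for eHCC and 4.59% for aHCC, and since these contrasts chose the genes nothing is read from that. Within samples 1 to 10 all 4 genes were higher in every nodule labelled positive than in every nodule labelled negative, as were 4.66% of features. Within samples 15 to 24 Nefl, Pla2g7 and Tceal9 were higher in every nodule labelled negative than in every nodule labelled positive, as were 8.10% of features.

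The groups can be ordered by mean level for each gene, with nodules pooled by label. Each label joins bright and dim nodules, and its SD largely measures the gap between them. For Nefl in nodules labelled negative the SD was 2.77. Those nodules had means of 7.76 ± 0.78 (SD, n = 5) in the first number range and 12.77 ± 1.01 (n = 5) in the second. A step that involves a nodule label and stays under the larger SD therefore says little. The ranks of the labels describe neither kind of nodule. Defb1 ran from eHCC through adenoma, aHCC, nodules labelled negative and nodules labelled positive to control. No neighbours among its 5 lesion groups differed by more than the larger of their SDs. Nefl ran eHCC, nodules labelled negative, adenoma, nodules labelled positive, aHCC, control, and again each step between lesion groups was smaller than the larger SD. Pla2g7 ran eHCC, adenoma, aHCC, nodules labelled positive, nodules labelled negative, control, and its step from adenoma to aHCC, 1.71, exceeded the larger SD of 1.13 although the ranges overlapped. Tceal9 ran adenoma, eHCC, aHCC, nodules labelled negative, nodules labelled positive, control, with no step between lesion groups beyond the larger SD. For every gene the step from the lowest lesion group down to control exceeded the larger SD, although for Defb1 and Pla2g7 the ranges of these 2 groups overlapped.

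Within the aHCC the 4 genes did not vary as a block. Sample 29 had the highest Defb1 of any array (15.06) and the highest Krt19 of the aHCC (13.59), but the lowest Tceal9 (8.78) and the lowest Nefl (7.17, not detected) of the group. Samples 28 and 30 had the highest Tceal9 (12.35 and 12.38) with the lowest Krt19 (9.08 and 9.09). Sample 31 had the highest Nefl (10.02) and the highest Pla2g7 (10.23). Over the 9 aHCC Defb1 and Nefl ran in opposite directions (Pearson r = -0.71, Spearman rho = -0.80), as did Tceal9 and Krt19 (r = -0.73, rho = -0.57), and both pairs include sample 29 at one end. No r is given without that sample. These were the strongest of all pairs among the 4 genes and Krt19. The other pairs had r from -0.42 (Defb1 and Tceal9, rho = 0.23) to 0.50 (Nefl and Pla2g7, rho = 0.32).

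Krt19 and the 4 genes were set side by side over the 20 nodules. Because Krt19 falls into separate clusters, no correlation is given over all of them, and each is given within a set of 10 that joins the nodules of like Krt19 from both ranges. These points share the array platform, its normalization and 2 ranges of sample numbers, and each label within a range holds 5 nodules, too few for a correlation of its own. In the set of nodules 6 to 10 and 20 to 24, with low Krt19, Defb1 was higher where Krt19 was higher (r = 0.90, rho = 0.83, n = 10; r = 0.91 without nodules 6 and 22, the farthest from the median). Tceal9 did likewise (r = 0.89, rho = 0.90; 0.89 without them), and so did Nefl (r = 0.83, rho = 0.75; 0.85 without them), although 4 of the 10 nodules did not detect it. Pla2g7 was not detected in 6 of these 10 nodules, so its r of 0.58 and rho of 0.82 (r = 0.53 without them) rest largely on values with no order.

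In the set of nodules 1 to 5 and 15 to 19, with high Krt19, Nefl still tracked Krt19 closely (r = 0.92, rho = 0.92, n = 10; r = 0.90 without nodules 1 and 15, the farthest). Defb1 and Tceal9 did not (r = 0.28 and 0.24, rho = 0.21 and 0.33), and for Defb1 r was -0.04 without those nodules. Pla2g7 had r = 0.69 and rho = 0.62, and r was 0.34 without nodules 1 and 15, so that relation rests on them. The Nefl relation can be read nodule by nodule. In nodules 1 to 5 both genes ran from high to low in the order 1, 2, 3, 4, 5, and in nodules 15 to 19 both ran 15, 18, 19, 16, 17, so that 10 of 10 pairs of nodules kept the order in each. Tceal9 also kept 10 of 10 pairs in nodules 15 to 19 but 5 of 10 in nodules 1 to 5, and Defb1 kept 8 of 10 and 2 of 10. Pla2g7 kept 7 of 10 in each. The 10 pairs come from the same 5 nodules and are not independent, so such counts describe the order and no more. Tceal9, detected in every nodule, kept 9 of 10 pairs in nodules 6 to 10 and in nodules 20 to 24. Nodule 23 was the highest of nodules 20 to 24 for all 4 genes and Krt19. No order is given there for the other genes, since probes that are not detected have none.

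**Figure D3:**
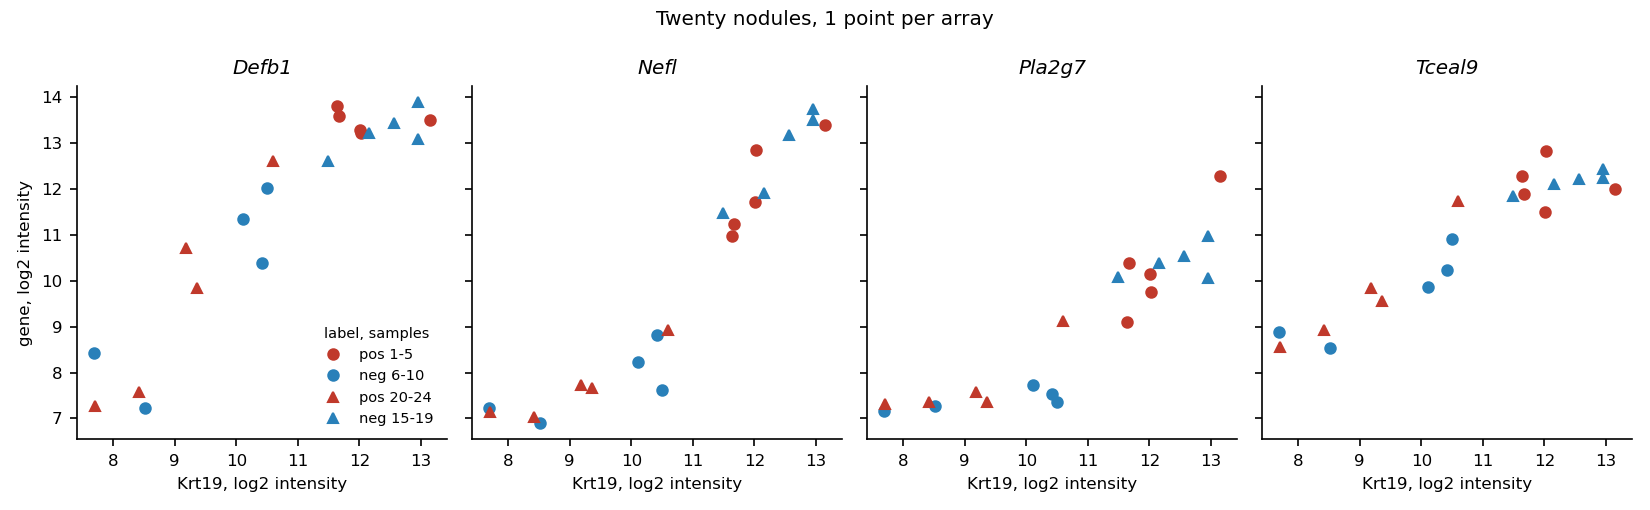
Log2 intensity of each gene (vertical axis) against that of Krt19 (horizontal axis) in 20 nodules, 1 point per array; colour gives the KRT19 label and shape the sample-number range. Nefl climbs with Krt19 among the 10 bright nodules (r = 0.92), whereas Defb1 and Tceal9 are level there (r = 0.28 and 0.24), and Pla2g7 stays near 7 to 8 in 9 of the 10 nodules of low Krt19.

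Each difference between the labels of a range repeats in the other range with the sign turned. Labelled positive minus labelled negative, the log2 difference in samples 1 to 10 was 3.61 ± 0.68 (SE) for Defb1, 4.27 ± 0.56 for Nefl, 2.93 ± 0.49 for Pla2g7 and 2.42 ± 0.46 for Tceal9. In samples 15 to 24 the same differences were -3.65 ± 0.68, -5.07 ± 0.56, -2.67 ± 0.49 and -2.45 ± 0.46. Krt19 itself differed by 2.66 ± 0.77 and -3.37 ± 0.77.

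The relatives of each gene are taken from 4 lists by family or function, with the members left out, and were tested over all features with limma, which fits 1 linear model to all groups; a gene passed at a Benjamini-Hochberg adjusted p under 0.05. The lists were written with earlier results of these arrays known. The share of all features that passed was 18.7% for nodules labelled positive, 19.5% for nodules labelled negative, 26.0% for adenoma, 32.2% for eHCC and 38.0% for aHCC, each against control. It was 7.77% between the labels in samples 1 to 14 and 6.34% in samples 15 to 27. By direction, 1306 of 13479 features were higher and 1211 lower in nodules labelled positive, and 1325 and 1308 in nodules labelled negative. For adenoma the counts were 1818 and 1692, for eHCC 2295 and 2041, and for aHCC 2592 and 2528. Between the labels they were 569 and 478 in samples 1 to 14, and 364 and 491 in samples 15 to 27. List counts by direction are to be read beside these. The median difference over all features was between -0.01 and 0.01 in each comparison.

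Among Tceal9's relatives the neighbour Bex3 had the largest differences from control. Bex3 encodes a small adaptor protein of the BEX family, and in GRCr8 it is the next protein-coding gene to Tceal9. It was detected in 48 of 48 arrays, with log2 intensities of 7.83 to 8.16 in controls, 9.97 to 10.75 in adenomas, 9.82 to 10.74 in eHCC and 8.55 to 10.79 in aHCC. Bex3 rose in all 5 comparisons with control by limma, by 1.94 ± 0.32 (SE, adjusted p = 1.58e-05) in nodules labelled positive, 2.06 ± 0.32 (6.37e-06) in nodules labelled negative, 2.32 ± 0.42 (4.55e-05) in adenoma, 2.45 ± 0.39 (3.45e-06) in eHCC and 1.85 ± 0.33 (1.41e-05) in aHCC. Between the nodule labels it differed by 1.5 ± 0.30 (adjusted p = 0.00111) in samples 1 to 14 and by -1.74 ± 0.30 (0.000245) in samples 15 to 27. Over the 48 arrays Bex3 and Tceal9 had r = 0.98, and within the 2 nodule sets r was 0.93 and 0.95 (n = 10 each). In aHCC sample 29, where Tceal9 was lowest, Bex3 was lowest as well (8.55).

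Of 7 TCEAL, BEX and TFIIS genes tested, Bex3 was the only one to pass in the nodules of either label. More passed in the tumours, with 3 rising in adenoma, 4 in eHCC and 2 in aHCC, and none falling by the adjusted p in any comparison with control (at an unadjusted p under 0.05, 1 fell in nodules labelled positive and 1 in eHCC). The list's median difference was 0.13, 0.15, 0.30, 0.27 and 0.13 in the 5 comparisons. Tceal1, a close paralog that lies 2 genes beyond Bex3, rose by 0.67 ± 0.12 in eHCC (adjusted p = 2.1e-05 by limma) and 0.35 ± 0.10 in aHCC (adjusted p = 0.00479), the latter not within samples 28 to 48 alone (adjusted p = 0.174). Tceal8 rose by 1.05 ± 0.30 in eHCC (adjusted p = 0.00578), and its call in adenoma (0.85 ± 0.33, an adjusted p just under 0.05) was lost when any of the 4 adenomas was left out. Bex2 stayed near background, detected in 3 arrays.

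**Figure D4:**
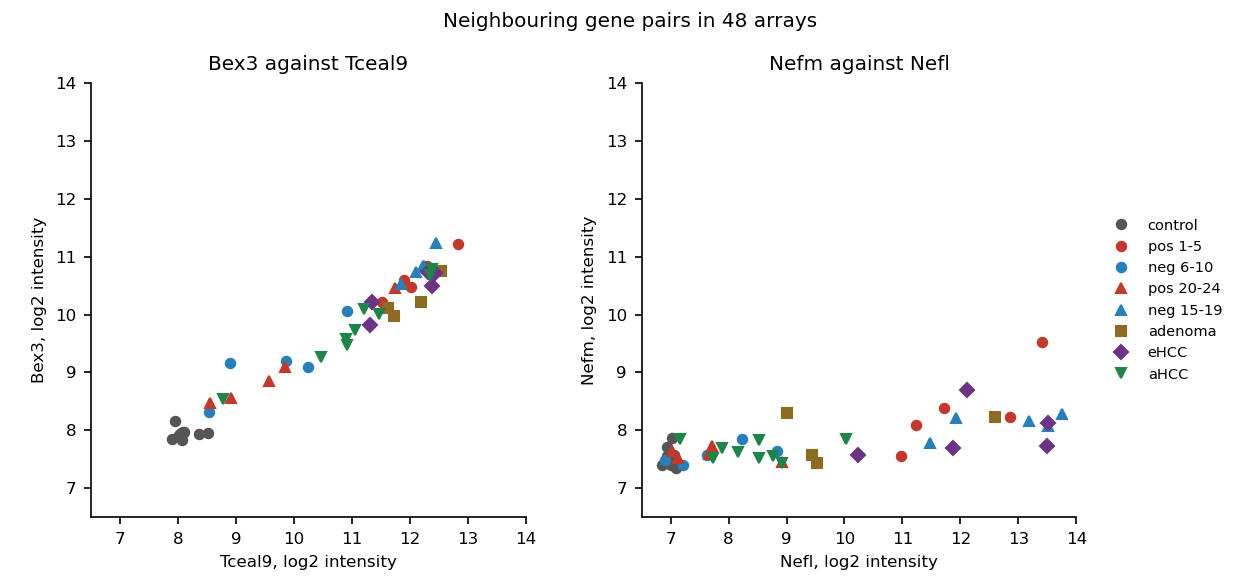
Log2 intensity of 2 pairs of genes that lie next to each other in the GRCr8 assembly, 1 point per array, on equal axes. Bex3 climbs with Tceal9 over all groups (r = 0.98, 48 arrays), while Nefm stays between 7 and 10 over the whole range of Nefl (r = 0.69).

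Nefl's filament partner Nefm showed smaller differences than Nefl. Nefm, the medium chain of the same filament and the next gene in GRCr8, had log2 intensities of 7.36 to 7.87 in controls and reached at most 9.52 in any array (nodule 1). Its difference from control was 0.44 in nodules labelled positive, 0.31 in nodules labelled negative, 0.35 in adenoma, 0.43 in eHCC and 0.12 in aHCC, none of which passed by limma. Nefm passed only between the labels of samples 1 to 14, by 0.77 ± 0.20 (adjusted p = 0.0111), and that call was lost without nodule 1 (adjusted p = 0.091). In samples 15 to 27 the difference was -0.52 (adjusted p = 0.121). Over 48 arrays Nefm and Nefl had r = 0.69, and within the nodule sets 0.24 and 0.53. Ina, which encodes alpha-internexin, another partner of neurofilaments, was detected in 0 arrays.

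Of 13 neurofilament, neuronal cytoskeleton and vesicle genes tested, 1 rose and 1 fell in nodules of each label, 2 rose and 1 fell in adenoma and in eHCC, and 4 rose and 2 fell in aHCC. The riser in nodules was Stmn1, a microtubule-destabilising protein of dividing cells (0.98 ± 0.26 and 0.94 ± 0.26), which rose by 1.57 ± 0.35 in adenoma, 1.60 ± 0.32 in eHCC and 1.56 ± 0.27 in aHCC. Vim, the vimentin gene of mesenchymal cells, rose by 1.02 ± 0.27, 1.39 ± 0.25 and 1.21 ± 0.21 in the tumour groups. Stmn3, a neuronal relative of Stmn1, fell in every comparison with control, with differences from -0.29 in aHCC to -0.43 in adenoma and eHCC. Of the genes named here, Stmn1 and Vim are not specific to neurons. The Stmn1 call in nodules labelled negative was lost within samples 1 to 14 (difference 0.17, adjusted p = 0.728), and the falls of Stmn3 in tumours were lost within samples 28 to 48 (adjusted p = 0.323 to 0.995).

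Markers of neurons and Schwann cells were read beside Nefl. Of 14 such markers 11 were in the table and 8 could be tested, and by limma 0 passed in nodules of either label, adenoma or eHCC (at an unadjusted p under 0.05, 0 or 1 rose and 0 to 2 fell). Their summed intensity was 1645 to 1840 in control, 1607 to 1713 in nodules 1 to 5, 1761 to 1789 in nodules 15 to 19 and 1682 to 1771 in eHCC, where Nefl was bright. In control liver Syt1, S100b and Sox10 were detected in 0 arrays. Of the 11 markers, 6 were detected in no array of nodules 1 to 5, 5 in none of nodules 15 to 19 and 2 in none of the eHCC. The sums include background that was not subtracted, so a small change could go unseen in them. In aHCC 1 rose, S100b (0.81 ± 0.20, adjusted p = 0.000949), and 2 fell, and the sum reached 2481.

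The intracellular platelet-activating factor acetylhydrolases, relatives of Pla2g7 in function, passed in aHCC or eHCC. Pafah1b3, a catalytic subunit, rose in aHCC by 0.95 ± 0.13 (adjusted p = 2.64e-07 by limma), where Pla2g7 was at its lowest among tumours. Pafah1b2, the other catalytic subunit, rose there by 0.43 ± 0.10 and Pafah1b1, the regulatory subunit, fell by 0.31 on the log2 scale, both calls lost within samples 28 to 48. Pafah2 fell in eHCC by 0.20, a call lost without eHCC sample 39 or 44. None of these 4 passed in nodules or adenoma.

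Of 23 phospholipase A2 and platelet-activating factor genes tested, 4 rose and 3 fell in nodules labelled positive, 4 and 4 in nodules labelled negative, 4 and 3 in adenoma, 5 and 4 in eHCC and 8 and 4 in aHCC. The list's median difference lay between -0.04 and 0.14. Pla2g12a, a secreted phospholipase A2, rose in all 5, from 1.10 ± 0.14 in nodules to 1.35 ± 0.14 in aHCC. Plaat3, a phospholipase of fat cells and peroxisomes, fell in all 5, with differences from -1.12 ± 0.33 in nodules labelled negative to -2.36 ± 0.41 in eHCC. Lpcat3, which reloads lysophospholipids with polyunsaturated fatty acids, fell in all 5, with differences from -0.52 to -0.76. Pla2g2a, a secreted phospholipase of inflammation, rose in eHCC (0.93 ± 0.23) and fell in nodules labelled positive (difference -0.61 ± 0.19).

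Macrophages make Pla2g7 in other settings, and their markers were read beside it. Of 7 Kupffer cell and macrophage markers in the table, 0 rose by limma in any comparison with control (also 0 at an unadjusted p under 0.05), and 1, 2, 3, 3 and 1 fell in the 5 comparisons. Their summed intensity was 10003 to 20835 in control, 10866 to 20559 in nodules 1 to 5, 14863 to 22190 in nodules 15 to 19, 8131 to 14353 in nodules 6 to 10 and 9485 to 14726 in nodules 20 to 24. The sums of nodules 15 to 19 all exceeded those of nodules 20 to 24, whereas nodules 1 to 5 overlapped nodules 6 to 10. C1qb and C1qc, of the complement C1q made by macrophages, differed between the labels by 0.64 and 0.59 in samples 1 to 14. In samples 15 to 27 they differed by -0.85 and -0.82. C1qa (0.32 and -0.60), Cd163 (0.41 and -0.23) and Adgre1 (0.28 and -0.13) had the same signs. Marco ran the other way, with -0.97 and 0.76, and Vsig4 did not turn sign (-0.01 and -0.16). None of these markers passed between the labels. The part of macrophages in the Pla2g7 level was not tested.

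Of Defb1's relatives few could be read. Of 26 beta-defensins and other epithelial antimicrobial genes, 15 were in the table and 10 could be tested. Defb4 was detected in 1 array, and the neighbouring alpha-defensin gene Defa5 in 1. By limma 0 rose in nodules of either label (at an unadjusted p under 0.05, 0 and 1), 1 rose in adenoma and in eHCC, and 2 rose in aHCC, with 1, 1, 2, 2 and 3 falling. Slpi, a secreted protease inhibitor of mucosae, rose by 1.42 ± 0.44 in eHCC (adjusted p = 0.00949) and by 1.24 ± 0.47 in adenoma (adjusted p = 0.0462, lost without adenoma 43 with an adjusted p of 0.194). Lcn2, which binds bacterial iron carriers, rose in aHCC by 0.76 ± 0.13, and S100a8, of neutrophils, by 0.69 ± 0.24. Ang, encoding the ribonuclease angiogenin, fell in all 5 comparisons, with differences from -0.77 in nodules labelled positive to -1.88 in eHCC. Pigr, the receptor that carries immunoglobulin A into bile, fell in adenoma, eHCC and aHCC, with differences of -0.77, -0.92 and -0.98, and Hamp, the iron hormone hepcidin, fell in aHCC (-0.99 ± 0.25). Wfdc2, an epithelial secreted protein, moved with the label differences, by 0.78 in samples 1 to 14 and -0.81 in samples 15 to 27, at adjusted p of 0.0422 and 0.0408 that leaving out single nodules raised to 0.126 and 0.159 at most.

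Part of the biliary and progenitor genes rose in lesions. Of 12 tested, Krt19 included, 5 rose in nodules labelled positive, 6 in nodules labelled negative, 6 in adenoma, 7 in eHCC and 7 in aHCC, and none fell in nodules and 1 in each tumour group. That one was Onecut1, a liver and bile duct transcription factor (difference -3.09 ± 0.55 in eHCC). Cd24, a surface protein of progenitor cells, rose by 2.24 ± 0.46, 2.60 ± 0.46, 2.91 ± 0.61, 2.95 ± 0.56 and 2.33 ± 0.47 in the 5 comparisons. Epcam, an epithelial adhesion protein of bile ducts, rose by 1.67 ± 0.35, 1.72 ± 0.35, 2.31 ± 0.46, 2.16 ± 0.43 and 1.18 ± 0.36. Between the nodule labels 4 of 12 were higher in nodules labelled positive in samples 1 to 14 (list median -0.04), and 5 of 12 were lower in samples 15 to 27 (list median -0.49). Of 6 cholangiocyte markers tested, 3, 3, 3, 3 and 4 rose and none fell (also none at an unadjusted p under 0.05). The summed intensity of 5 of them without Krt19 was 1199 to 1608 in control, 3434 to 5417 in nodules 1 to 5, 3120 to 4034 in nodules 15 to 19, 2009 to 3419 in nodules 6 to 10 and 1525 to 2200 in nodules 20 to 24. Of these 5 only Epcam passed between the labels, with 1.37 ± 0.39 in samples 1 to 14 (adjusted p = 0.0193 by limma) and -1.47 ± 0.39 in samples 15 to 27 (adjusted p = 0.0144). Leaving out nodule 8 raised the first p to 0.0800 and nodule 1 to 0.0632, and leaving out nodule 22 raised the second to 0.0622 and nodule 15 to 0.0578. Aqp1 ran the other way, with -0.36 and 0.43, and Spp1, Krt7 and Cldn4 were slightly lower in nodules labelled positive in both ranges, without passing. The part of these markers in the levels of the 4 genes was not tested. In dissected tissue, a change in how many cells of a type were present and a change in RNA per cell cannot be told apart.

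Among markers of other cell types, the label differences of the collagen genes turned sign between the sample ranges. Stellate cell and fibroblast markers summed to 2532 to 4748 in control, 7276 to 11101 in nodules 1 to 5, 9472 to 15740 in nodules 15 to 19, 3722 to 8467 in nodules 6 to 10 and 4610 to 6732 in nodules 20 to 24. Labelled positive minus labelled negative, Col1a1 differed by 0.51 in samples 1 to 14 and -1.26 in samples 15 to 27. The values were 0.99 and -1.28 for Col1a2, 0.39 and -1.02 for Col3a1, and 0.40 and -1.04 for Dcn, a matrix proteoglycan. The other markers of this list did not share that pattern. Des had -0.34 and 0.02, Lum -0.03 and -0.05, and Thy1 -0.01 and -0.03. Of these Col1a2 passed in both ranges (adjusted p = 0.0367 and 0.00695 by limma) and Col1a1 in the second (adjusted p = 0.00031), and the list medians were 0.39 and -1.02. The Col1a2 call in samples 1 to 14 was lost without any 1 of nodules 1, 2, 5, 6, 8 and 9, with adjusted p up to 0.122. By limma 2, 3, 3, 4 and 2 of 7 rose against control and 1, 0, 0, 1 and 0 fell. Hepatocyte markers summed to 234367 to 292319 in control, 230625 to 269556 in nodules 1 to 5, 178291 to 249768 in nodules 15 to 19 and 144837 to 218983 in eHCC, with 0, 0, 2, 5 and 4 of 9 lower. Blood cell markers summed to 30850 to 84843 in control and 8076 to 26641 in nodules labelled positive, with 2 of 6 lower in every group but aHCC, where 1 was higher. Of 3 endothelial markers tested 1 was lower in adenoma and in eHCC, and Cdh5 was detected in no array. Of 2 mesothelial markers tested, Krt19 and Msln, both were higher in nodules labelled negative and in aHCC and 1 in the other groups, and Wt1 was detected in no array. Their part in the levels of the 4 genes was not tested.

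The genes whose pattern over the 48 arrays was most like each of the 4 were found among 9265 named genes by Pearson r, as a description. For Defb1 they were Tubb6 (a beta-tubulin, r = 0.97), Ptgr1 (prostaglandin reductase 1, 0.97), Akr1b8 (an aldo-keto reductase, 0.96), Slc25a4 (a mitochondrial ADP/ATP carrier, 0.96) and L3mbtl2 (a chromatin protein, 0.95). For Nefl the likeness was looser, with Lgmn (the lysosomal protease legumain, 0.89), Ddr1 (a collagen receptor, 0.88), Agtpbp1 (a tubulin deglutamylase, 0.88), Rcan2 (a calcineurin regulator, 0.87) and Tgif1 (a homeobox repressor, 0.86). For Pla2g7 they were Slc17a1 (a phosphate transporter, 0.93), Slc40a1 (the iron exporter ferroportin, 0.93), Taldo1 (transaldolase of the pentose phosphate pathway, 0.91), Slc66a3 (0.90) and Akr1c13 (an aldo-keto reductase, 0.89). For Tceal9 they were Bex3 (0.98), Gclm (the modifier subunit of glutamate-cysteine ligase, 0.95), Slc25a4 (0.94), Tusc3 (an oligosaccharyltransferase subunit, 0.94) and Car2 (carbonic anhydrase 2, 0.94). None of the 4 genes was among the top 5 of another. Defb1 ranked 28 for Tceal9 and Tceal9 ranked 32 for Defb1, Pla2g7 ranked 12 for Nefl and Nefl ranked 46 for Pla2g7. Krt19 ranked 38 for Pla2g7, 81 for Defb1, 136 for Nefl and 298 for Tceal9. An r over 48 arrays pools controls, nodules and tumours, so the steps between groups enter it. For Defb1 and Krt19 it was 0.86. Within groups their r was 0.90 in nodules 6 to 10 and 20 to 24, 0.28 in nodules 1 to 5 and 15 to 19, and 0.12 in aHCC.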

How the data were processed

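Messenger RNA was measured on 48 single-colour Illumina rat arrays, 1 per dissected sample. The submitters' processing notes name BeadStudio 3.0.19.0. For each probe and array the authors deposited 1 intensity and 1 detection p-value. The table is called non-normalized, yet medians of the deposited intensity were nearly equal in all arrays and the lowest value was 96.8, so the values are normalized and not background-subtracted; a second deposited table of intensity values was identical. The aligner of probes to genes and the genome build are not given in the sources used here. For arrays, the number of arrays limits the precision.

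The design foresaw other handling of raw values; since the values were normalized, log2 of the deposited intensity was used with no further normalization, and neqc of limma as an alternative. Probes detected (p under 0.05) in at least 4 arrays were kept. The probe with the highest mean stood for a gene, giving 13479 features, 9273 of them named; 13793 probes had 1 symbol, 0 several and 8730 none, and 13752 gene identifiers matched the RefSeq table of GRCr8 with 0 symbols changed. Groups came from the sample titles. One linear model over 6 groups, and 1 over 8 groups with nodule labels split by number range, was fitted with limma 3.58.1 in R 4.3.3, with Benjamini-Hochberg adjustment over all features within a comparison; the procedure was tested on simulated data. Named genes were the 4 genes and Krt19, close paralogs, the largest 2 rises and 2 falls of each list among those that passed (a selection of which is printed), and the 5 genes most like each of the 4. The 4 genes, the gene lists and the tests were chosen with earlier results of these data known. Alternatives were another background correction, filters, array weights, the number range as a block, leaving out arrays or control samples 25 to 27, and fits within number ranges.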

Additional observations from a re-analysis of the deposited data

Results flagged for a closer look

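Some single arrays stood apart from the rest of their group by Dixon's gap ratio, which chance exceeds in about 1 in 20 groups. The ratio was taken for the 4 genes and Krt19 in every title group and in each nodule label within a range. With that many looks, some of these flags can be due to chance alone. Defb1 in aHCC sample 29 had a log2 intensity of 15.06, above the other 8 aHCC, which ended at 13.20. Nefl in adenoma sample 42 was 12.59, above the other 3 adenomas at 9.00 to 9.53. Pla2g7 in nodule 23, labelled KRT19-positive, was 9.12, above the other 4 of nodules 20 to 24. Krt19 was 8.76 in control sample 27, above the other 9 controls, and 13.15 in nodule 1, above nodules 2 to 5.

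The difference between the KRT19 labels had opposite signs in samples 1 to 10 and samples 15 to 24, with every nodule of one label on one side in each range. The first difference less the second was 9.35 log2 units for Nefl, 5.60 for Pla2g7, 4.87 for Tceal9 and 6.03 for Krt19. For Defb1 it was 7.25, with nodules 17 and 23 crossing by 0.01. These differences of differences were not tested.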

How the results depend on the processing

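Of 184 alternatives to the values reported here, 158 left them within the spread between arrays or within 1.5 times a count. The other alternatives moved them in 25 cases and turned a sign in 1. Of 540 fits without 1 array, 531 left them, 8 moved them and 1 turned a sign. For the 4 genes against control the spread was the SD of the lesion group. In a pooled nodule label it spans bright and dim nodules (2.77 for Nefl in nodules labelled negative), so large shifts still counted as left. Against control, nodules 6 to 10 differed by 0.77 for Nefl and 0.11 for Pla2g7. The pooled label gave 3.28 and 1.61. Background correction with neqc raised the differences from control, which follows from subtracting background from dim probes. Defb1 became 8.14 in adenoma, 8.39 in eHCC and 7.71 in aHCC (from 5.96, 6.20 and 5.54), Nefl 5.21, 7.51 and 2.87 (from 3.15, 5.25 and 1.42), Pla2g7 5.41, 5.64 and 3.43 (from 3.51, 3.74 and 1.80), and Tceal9 4.76 in adenoma and 4.69 in eHCC (from 3.91 and 3.85). No alternative turned the sign of a difference of the 4 genes from control.

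Array weights moved the genes that passed in nodules labelled negative from 2633 to 5618 and between the labels in samples 15 to 27 from 855 to 4306; the cause was not tested. Leaving out 1 array gave 626 to 1183 genes between the labels in samples 1 to 14 (1047 with all; 690 without nodule 1, 626 without nodule 8) and 363 to 1116 in samples 15 to 27 (363 without nodule 15, 472 without 20, 474 without 22, 511 without 21, 537 without 19, 544 without 18). The following fits were chosen after seeing the data and use fewer arrays. Within samples 1 to 14, 3847 genes passed for nodules labelled positive (2517 over all arrays) with 29 of the related genes (16), and 740 for nodules labelled negative with 8 related genes (18). Within samples 15 to 27, 5373 passed for nodules labelled negative with 36 related genes. Within samples 28 to 48, 2558 passed for aHCC (5120) with 15 related genes (33). On the 10 nodules of a range alone, 14 related genes (9) passed in samples 1 to 14, and 3442 genes with 30 related genes (11) in samples 15 to 27. Among related genes and markers named in the text, calls of Ang, Cd24, Epcam, Hamp, Lpcat3, Pigr, Pla2g2a, Plaat3, S100a8 and S100b were each lost in at least 1 alternative in at least 1 comparison, and those of Bex3 and Pla2g12a in none.

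The relation with Krt19 in nodules 1 to 5 and 15 to 19 went from r = 0.28 to -0.0434 for Defb1 and from 0.69 to 0.340 for Pla2g7 without the 2 farthest nodules; leaving out 1 nodule gave -0.0699 (without nodule 17) to 0.506 for Defb1. No paired analysis was possible because every sample number is unique and no number is shared between groups. Each of the 4 genes has 1 probe, so the planned comparison with another probe gave no value. Signal over background limits Nefl and Pla2g7 most, since nodules near the control level have no order there.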
